A study of Mus musculus with 32 samples.

Results

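Glucocorticoid signalling in the mouse brain was followed through 10 genes, the receptor genes Nr3c1 and Nr3c2 and the 8 response genes Zbtb16, Ddit4, Fkbp5, Sgk1, Tsc22d3, Errfi1, Plin4 and Mt2. They were chosen by name from the 54146 gene identifiers of the deposited count table, and all 10 had enough reads to be tested in both brain regions. The 32 libraries each held RNA of 1 hippocampal or striatal hemisphere of a male C57BL/6J mouse (strain tag C57BL/6), aged 12 weeks. Each region had 4 groups of 4 mice: vehicle and context, vehicle and contextual fear conditioning (CFC), CI-994 and context, and CI-994 and CFC. CI-994 blocks class I histone deacetylases, enzymes that take acetyl groups off histones, and is called HDACi in the labels. It was given intraperitoneally at 30 mg/kg, and vehicle mice received the same solvent of dimethyl sulfoxide, Kolliphor and saline. Behaviour followed 1 hour after the injection and tissue was taken 1 hour after behaviour. CFC meant 2 foot shocks of 0.2 mA, and context mice spent the same time in the chamber without a shock. The labels call the 4 libraries of a group biological replicates from single mice, so the spread within a group holds that between mice and counting error.

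Every mouse had been handled during acclimatization and injected on the day, so no group shows a level without injection, and the stress of injection has no comparison here. What could be compared was shock against no shock, drug against vehicle, and hippocampus against striatum. Conditioning was assigned by cage, and the 2 cannot be told apart. In bulk tissue, fewer cells of a type and less RNA per cell cannot be told apart either.

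Corticosterone, the glucocorticoid of the mouse, enters the brain from the blood and binds 2 nuclear receptors. The mineralocorticoid receptor (Nr3c2) has the higher affinity and is known for its high level in hippocampal neurons, while the glucocorticoid receptor (Nr3c1) is more widespread and is occupied mainly when the hormone is high, as under stress. The bound receptors enter the nucleus and switch on response genes, among them Fkbp5, whose product lowers the hormone affinity of the glucocorticoid receptor.

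The best known DNA site of both receptors is a pair of inverted hexamers spaced by any 3 bases, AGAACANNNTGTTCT in its ideal form, which is its own reverse complement. RefSeq start sites (GRCm38.p6) were available for 8 of the 10 genes, with 16 starts, and the 250 bases before each start were searched on both strands. The ideal element occurred in 3 of 32851 such windows of the genome (0.00913%), and 1 of them belonged to Sgk1. The Sgk1 window is shown because it is the only one of the 16 that held the element. It is printed from chr10:21993640-21993889 on the + strand. They lie inside the longer Sgk1 transcripts and touch no annotated exon. Capitals mark the element, at bases -189 to -175 from that start.

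Sgk1 promoter: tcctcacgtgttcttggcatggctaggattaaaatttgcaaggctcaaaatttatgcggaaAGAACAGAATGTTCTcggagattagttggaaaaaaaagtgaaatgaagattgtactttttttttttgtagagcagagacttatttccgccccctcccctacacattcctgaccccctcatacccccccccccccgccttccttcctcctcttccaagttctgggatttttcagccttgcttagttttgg

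Metallothioneins such as Mt2 also answer to zinc and other metals through short metal response elements, with the core TGCACNC or TGCGCNC. On either strand these cores occurred in 10.4% and 12.5% of all promoter windows. Mt2 had 3 of them, and Ddit4 and Nr3c2 had 1 each. The 250 bases before the RefSeq start of Mt2, chr8:94172368-94172617 on the + strand, are shown for these 3 cores, in capitals. They also lie in an exon of the antisense gene Gm45774. The GENCODE annotation places the start of Mt2 further downstream, at base 94172664. Bases just after the RefSeq start were not found in the GENCODE transcripts of Mt2. The core nearest to the RefSeq start is on the opposite strand and is read as its reverse complement.

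Mt2 promoter: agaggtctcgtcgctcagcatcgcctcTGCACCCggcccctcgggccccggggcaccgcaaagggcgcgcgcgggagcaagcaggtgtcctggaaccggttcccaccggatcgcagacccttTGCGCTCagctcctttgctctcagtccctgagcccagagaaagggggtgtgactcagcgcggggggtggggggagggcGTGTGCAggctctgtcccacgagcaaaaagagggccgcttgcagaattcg

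The hexamer alone, AGAACA on either strand and also part of the full element, was found in 16.1% of all windows and, among these genes, only in those of Sgk1 and Tsc22d3. The motif matches describe the letters of these windows alone.

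The libraries held 26026024 to 36670767 counts in hippocampus and 27418127 to 33635025 in striatum. Counts behind single values ran from 239 for Plin4 to 8667 for Nr3c2. Counting error was not separated from the spread between mice. In tight groups, such as Errfi1 in hippocampal vehicle CFC mice (mean 67.3 CPM, SD 0.70), it can be as large as the whole spread. Levels below are CPM, read counts scaled to the library total, and levels of different genes are compared only as CPM per kilobase of exon. Marker genes fitted the labelled regions: 8 hippocampal neuron genes summed to 1144 to 1722 CPM in hippocampus and 301.0 to 497 in striatum, and 8 genes of medium spiny neurons to 68.3 to 116 and 3970 to 6640 CPM. The choroid plexus list (8 genes) reached 6175 CPM at most in the hippocampal CI-994 CFC group, where replicates 2 and 4 stood apart, against at most 434 CPM in every other group. In striatum, vehicle CFC replicate 3 and CI-994 CFC replicate 2 stood apart by low medium spiny neuron markers. With CI-994, all 6 oligodendrocyte precursor genes rose in hippocampus after context and after CFC and in striatum after CFC, and 5 of 6 rose in striatum after context. Their summed level was 193 to 228 CPM in hippocampal vehicle groups and 269 to 343 CPM with CI-994, and 195 to 256 against 272 to 366 CPM in striatum. Of 8 endothelial and pericyte genes 3 to 5 rose in each drug comparison. No marker gene was at 0 in all libraries, and the part of these cell types in the results below was not tested.

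The 2 receptors differed in where they were expressed. Nr3c2 was much higher in hippocampus than in striatum, whereas Nr3c1 had a similar level in both. In the vehicle context mice, Nr3c2 had 192, 227, 251.09 and 237 CPM in hippocampal replicates 1 to 4 and 44.2, 55.7, 46.7 and 52.1 CPM in striatum. Every hippocampal library was above every striatal one, in these and in all other groups (192 to 262 against 43.7 to 62.5 CPM over all 16 libraries of each region). The same mice had 86.6, 84.7, 93.5 and 93.8 CPM of Nr3c1 in hippocampus and 91.5, 91.7, 96.7 and 100.3 CPM in striatum, ranges that overlapped. Per kilobase of exon, the ratio of Nr3c2 to Nr3c1 was 2.18 to 3.43 in hippocampus (median 2.89, 16 libraries) and 0.522 to 0.864 in striatum (median 0.583). The mineralocorticoid receptor transcript thus exceeded that of the glucocorticoid receptor in every hippocampal library and was below it in every striatal one. The region contrast gave Nr3c2 a log2 fold change of 2.16 (SE 0.10, edgeR quasi-likelihood test with Benjamini-Hochberg adjustment, adjusted p = 1.74e-16), that is 4.47-fold. For Nr3c1 the contrast was -0.11 (95% interval -0.33 to 0.10, edgeR adjusted p = 0.409). Nr3c2 shares 247 exon bases with Gm10649 on the other strand (mean 2.97 CPM), and the strand setting of the counting is not given in the sources used here.

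**Figure D1:**
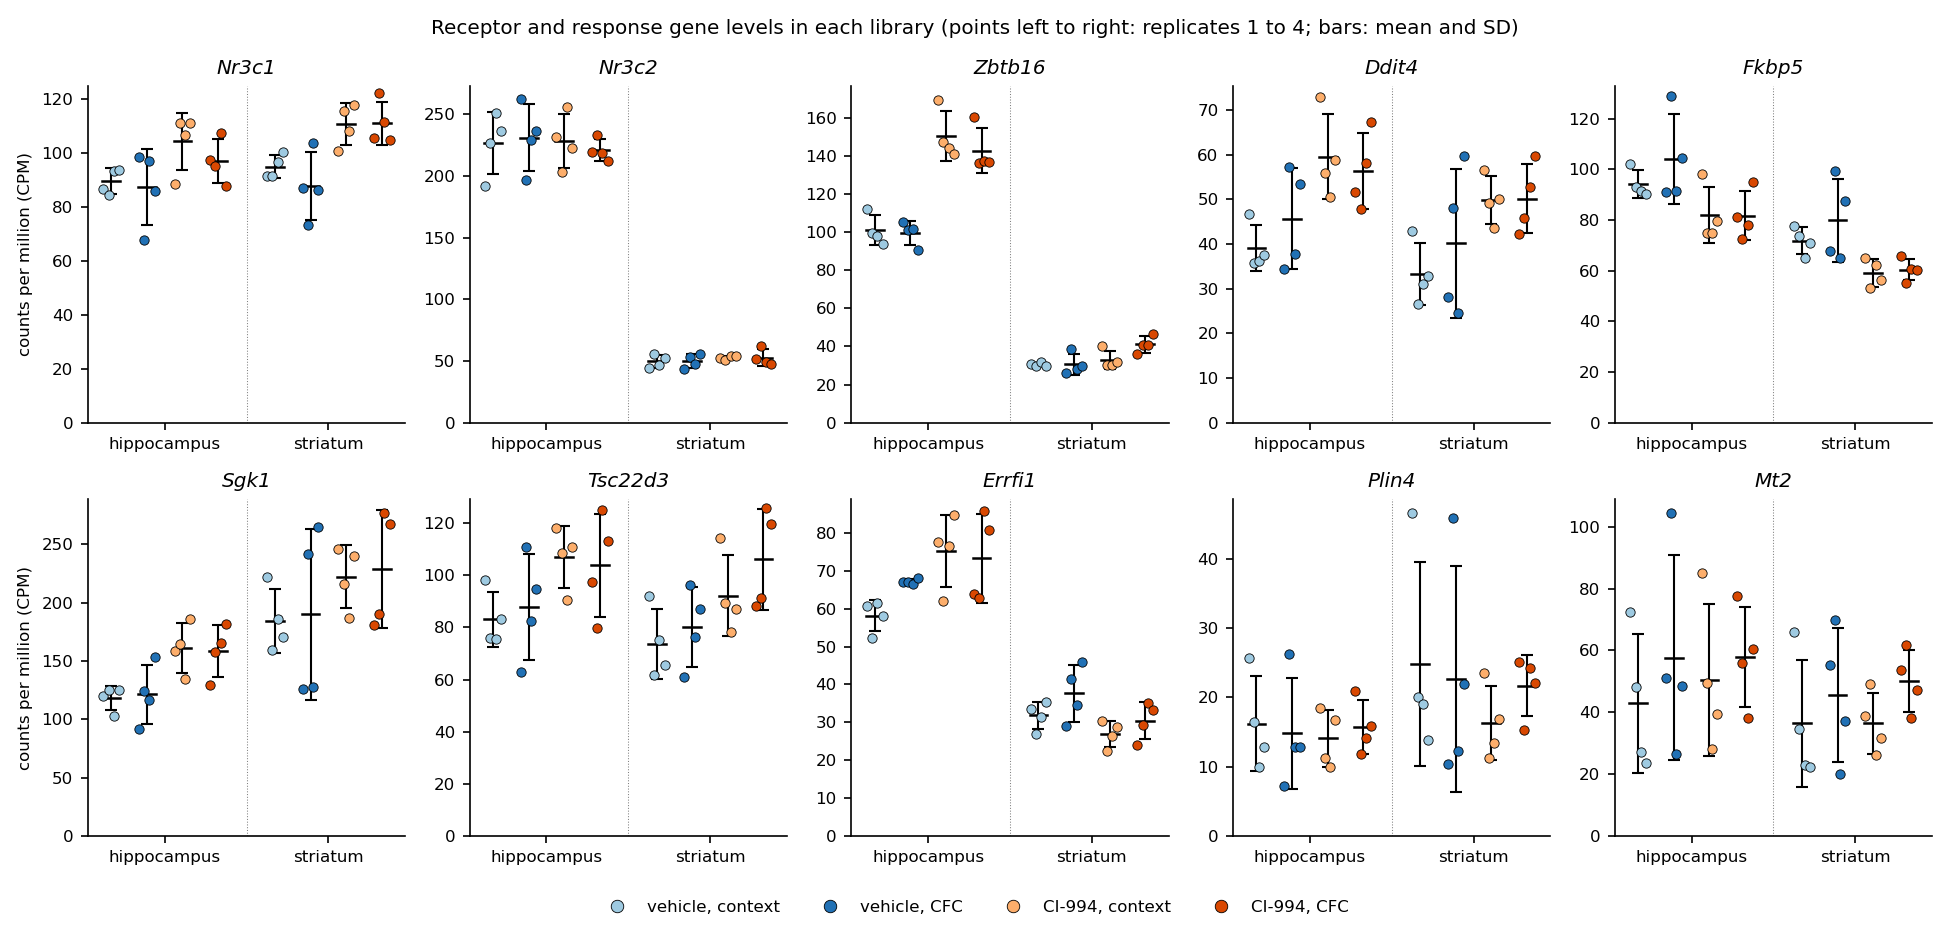
CPM of each gene in every library, with a linear axis from 0. Points are replicates 1 to 4 from left to right within each of the 4 groups of a region, and bars give the mean and SD. Nr3c2, Zbtb16 and Errfi1 separate the regions, Zbtb16 in hippocampus separates the CI-994 from the vehicle groups, and vehicle CFC replicate 2 is the highest library of its group for Fkbp5, Plin4 and Mt2 in both regions.

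Of the 10 genes, 4 were higher in hippocampus of vehicle context mice (24.2% of all 19198 genes tested) and 1 was lower (19.9%, and 44.1% in either direction). The 5 called genes had no overlap between regions, which held for 39.7% of all genes. Besides Nr3c2 these were Zbtb16, a zinc finger transcription factor (1.69 log2, SE 0.10, edgeR adjusted p = 2.08e-14), Errfi1, a feedback inhibitor of epidermal growth factor receptors (0.84, SE 0.13, edgeR adjusted p = 4.02e-06), and Fkbp5 (0.36, SE 0.12, edgeR adjusted p = 0.0123). Sgk1, a kinase that regulates ion channels and transporters, was lower in hippocampus (-0.67, SE 0.19, edgeR adjusted p = 0.00471), at 120.1, 126, 103 and 125 CPM against 222, 159.5, 186 and 170.3 CPM in striatum. The 6 oligodendrocyte markers were also lower in hippocampus, all 6 passing the test, with summed levels of 3022 to 4433 against 5681 to 8043 CPM in these mice. The part of that cell type in the Sgk1 difference was not tested. Libraries of both regions with the same treatment and number deviated together in these groups, though only 2 of 4 were most like their own number. A fit with a block for treatment and number, added after the data were seen, called 8 of the 10. It added Ddit4 (0.21, edgeR adjusted p = 0.0346), Tsc22d3 (0.16, edgeR adjusted p = 0.0295) and Plin4 (-0.59, edgeR adjusted p = 0.00199).

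Per kilobase of exon, Mt2 was the most abundant of the 10 transcripts in vehicle context mice (72.9 ± 38.2 CPM per kilobase in hippocampus and 62.0 ± 34.8 in striatum, SD, n = 4). In hippocampus Nr3c2 (35.0 ± 3.87) followed, then Sgk1 (24.1 ± 2.17), Ddit4 (22.3 ± 2.94), Tsc22d3 (19.2 ± 2.44) and Zbtb16 (19.1 ± 1.5), where each overlapped the next in its 4 libraries from Sgk1 to Zbtb16. Errfi1 (16.3 ± 1.15), Nr3c1 (11.7 ± 0.613), Fkbp5 (9.95 ± 0.574) and Plin4 (2.81 ± 1.19) came below, with no overlap between neighbours. In striatum Sgk1 (37.7 ± 5.58) overlapped Mt2 and stood above Ddit4 (18.997 ± 3.95) and Tsc22d3 (16.9 ± 3.10). Nr3c1 (12.4 ± 0.555) was next, above Errfi1 (8.89 ± 1.01), Nr3c2 (7.67 ± 0.805) and Fkbp5 (7.58 ± 0.558), which overlapped in that order. Zbtb16 (5.78 ± 0.190) and Plin4 (4.30 ± 2.55), a coat protein of lipid droplets, were lowest and overlapped.

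No change with the shocks passed the test for any of the 10 genes. In hippocampus and striatum, in vehicle and in CI-994 mice, 0 of 10 were called between CFC and context, and 0 of all genes were called in the same fits (0% in each of the 4 comparisons). At an unadjusted p under 0.05, edgeR gave 0 of the 10 in 3 of the comparisons and 1, Zbtb16, in the striatum of CI-994 mice. Over all genes the unadjusted counts were 188 and 775 in hippocampus (vehicle and CI-994) and 216 and 988 in striatum. The DESeq2 Wald test called 0 of the 10 in all 4 comparisons, and 0, 0, 0 and 2 genes in all.

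Single genes gave some values to set beside this. Errfi1 in the hippocampus of vehicle mice had 60.7, 52.4, 61.6 and 58.2 CPM after context and 67.1, 67.0, 66.6 and 68.3 CPM after CFC. All 4 conditioned mice were above all 4 context mice, as held in either direction for 0.827% of all genes (1.83% in CI-994 mice, and 0.975% and 2.8% in striatum), but the log2 fold change of 0.20 (SE 0.11, unadjusted p = 0.0829, edgeR adjusted p = 1) did not pass. Zbtb16 in the striatum of CI-994 mice had 40.1, 30.1, 30.0 and 31.8 CPM after context and 36.2, 40.8, 40.6 and 46.6 CPM after CFC (0.27, SE 0.11, unadjusted p = 0.0278, edgeR adjusted p = 0.839). These 2 groups overlapped through replicate 1 of the context group. For Nr3c1 the 4 differences lay between -0.13 and -0.04 log2, and for Nr3c2 between -0.08 and 0.02. For Fkbp5 they ran from -0.03 to 0.14, for Sgk1 from -0.05 to 0.03, for Tsc22d3 from -0.07 to 0.16 and for Ddit4 from -0.10 to 0.25. In vehicle mice the 95% interval for Fkbp5 was -0.10 to 0.37 in hippocampus and -0.11 to 0.38 in striatum, and that for Sgk1 was -0.25 to 0.32 and -0.43 to 0.48.

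Plin4 and Mt2, the 2 most variable of the genes, had the widest intervals. Mt2 was above 0 in all 4 comparisons of CFC with context (0.18 to 0.42 log2) with none called, and its interval in hippocampal vehicle mice was -0.44 to 1.28. Over the 10 genes the median CFC difference was 0.05 log2 in the hippocampus of vehicle mice and -0.06 with CI-994, and 0.07 and 0.06 in striatum, while the medians of all genes lay within 0.01 of 0. A difference in the CFC effect between regions in vehicle mice was called for 0 of 10 genes and for 0% of all genes, with 0 of the 10 at an unadjusted p under 0.05 by edgeR and 0 called by DESeq2.

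Several of the 10 genes were called higher with CI-994, in comparisons that called 19.8% to 24.8% of all genes in either direction. In hippocampus after CFC and in both striatal comparisons the share of the 10 called was near that of all genes. In hippocampus after context, 4 of the 10 rose with CI-994 and 0 fell (6.55% and 13.2% of the 18261 genes tested rose and fell, and 19.8% were called in all). These were Zbtb16, Ddit4, Sgk1 and Errfi1, and the glucocorticoid receptor gene did not pass. Zbtb16 had 112, 99.7, 98.1 and 93.5 CPM in vehicle mice and 169, 147, 144 and 141 CPM with the drug. Ddit4, an inhibitor of mTORC1 that answers to stress and low energy, had 46.8, 35.8, 36.2 and 37.6 CPM against 72.9, 55.9, 50.5 and 58.8 CPM. In both genes replicate 1 was the highest of its group with and without the drug, and the 2 groups did not overlap.

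Sgk1 had 120.1, 126, 103 and 125 CPM with vehicle and 159, 165, 134 and 186 CPM with CI-994. Errfi1 went from 60.7, 52.4, 61.6 and 58.2 CPM to 77.7, 62.1, 76.5 and 84.8 CPM. The groups of these 2 genes were also apart, Errfi1 by less than 1 CPM at replicate 2 of the drug group. The log2 fold changes were 0.66 for Zbtb16 (SE 0.08, edgeR adjusted p = 1.47e-05), 0.69 for Ddit4 (SE 0.16, edgeR adjusted p = 0.0046), 0.53 for Sgk1 (SE 0.13, edgeR adjusted p = 0.0096) and 0.45 for Errfi1 (SE 0.11, edgeR adjusted p = 0.00653). Groups of 4 without overlap were found for 22.4% of all genes in this comparison. All 4 calls held when any 1 of the 16 libraries was left out.

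Nr3c1 and Tsc22d3 were near the threshold in this comparison. Nr3c1 had 88.6, 111, 107 and 111 CPM with the drug against 84.7 to 93.8 CPM with vehicle, and the low drug library was replicate 1 (log2 fold change 0.30, SE 0.11, edgeR adjusted p = 0.069). Tsc22d3, whose product GILZ is an anti-inflammatory mediator of glucocorticoids, had 98.1, 76.0, 75.4 and 83.2 CPM with vehicle and 118, 108, 90.4 and 111 CPM with CI-994 (0.44, SE 0.15, edgeR adjusted p = 0.0539). These groups overlapped as CPM of the library total and not after TMM scaling. Same-numbered libraries of these 2 groups had correlated deviations (0.17 to 0.38), though only 3 of 4 were most like their own number. The fit with a replicate block called 6 of the 10, adding Nr3c1 (edgeR adjusted p = 0.0314) and Tsc22d3 (edgeR adjusted p = 0.0497). The DESeq2 Wald test also called these 6. Nr3c1 was called without vehicle CFC replicate 2 or CI-994 context replicate 1 as well, and Tsc22d3 without any of 6 single libraries (edgeR adjusted p = 0.0269 to 0.0420).

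In hippocampus after CFC, 2 of the 10 rose with CI-994 and 0 fell, beside 7.42% of all genes that rose, 13.4% that fell and 20.8% called in all. Zbtb16 had 105, 101, 102 and 90.7 CPM in vehicle and 160.2, 136, 137 and 137 CPM in CI-994 mice, again with no overlap (21.4% of all genes). Its log2 fold change was 0.58 (SE 0.08, edgeR adjusted p = 4.35e-05) and held without any single library. Sgk1 had 92.1, 125, 117 and 154 CPM against 129, 157, 166 and 182 CPM, and these groups overlapped through vehicle replicate 4. Its rise of 0.45 (SE 0.13, edgeR adjusted p = 0.0253) lost the call without vehicle CFC replicate 1 or 3 or without CI-994 CFC replicate 2, 3 or 4 (log2 fold changes 0.33 to 0.45, edgeR adjusted p = 0.0502 to 0.0828). Without the libraries that stood apart, 2 of which are in this group, it was 0.36 (edgeR adjusted p = 0.193). Here all 8 choroid plexus markers were called higher in the drug group, through CI-994 CFC replicates 2 and 4 (6175 and 5979 CPM summed). Replicates 1 and 3 had 41.35 and 36.31 CPM, not above the vehicle CFC range of 39.5 to 86.4 CPM. The part of these markers in the Sgk1 value was not tested. Ddit4 was at 0.37 (SE 0.16, edgeR adjusted p = 0.114), with vehicle replicates 2 and 4 (57.3 and 53.4 CPM) within the range of drug mice (47.9 to 67.3 CPM). Without vehicle CFC replicate 2 Ddit4 was called (0.50, edgeR adjusted p = 0.0373).

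In striatum after CFC, 3 of the 10 rose with CI-994 and 0 fell, beside 9.57% of 18256 genes that rose, 14.6% that fell and 24.2% in all. Nr3c1 had 87.2, 73.3, 104 and 86.3 CPM in vehicle and 106, 122, 112 and 105 CPM in CI-994 mice, without overlap (23.6% of all genes). Its rise of 0.42 (SE 0.09, edgeR adjusted p = 0.00306) was 1.34-fold. Zbtb16 had 26.1, 38.8, 28.2 and 29.6 CPM against 36.2, 40.8, 40.6 and 46.6 CPM (0.51, SE 0.11, edgeR adjusted p = 0.00349), and vehicle replicate 2 lay inside the drug range as CPM but not after TMM scaling. Both calls held without any single library. Tsc22d3 had 60.8, 96.3, 76.3 and 87.2 CPM against 88.1, 91.1, 126 and 119.5 CPM and overlapped through vehicle replicate 2. Its rise of 0.49 (SE 0.16, edgeR adjusted p = 0.0348) was not called without vehicle CFC replicate 1 or 3 or CI-994 CFC replicate 3 or 4 (edgeR adjusted p = 0.0601 to 0.111). Ddit4 was at 0.41 (SE 0.22, edgeR adjusted p = 0.191) and was called without vehicle CFC replicate 4 (0.66, edgeR adjusted p = 0.0296).

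In striatum after context, 2 of the 10 rose with CI-994 and 0 fell, beside 10.3% of all genes that rose, 14.5% that fell and 24.8% in all. Nr3c1 had 91.5, 91.7, 96.7 and 100.3 CPM with vehicle and 101, 116, 108 and 118 CPM with the drug (0.33, SE 0.09, edgeR adjusted p = 0.0139). Ddit4 had 42.9, 26.5, 31.0 and 32.9 CPM against 56.5, 49.2, 43.5 and 50.1 CPM (0.69, SE 0.22, edgeR adjusted p = 0.0284). Neither gene's groups overlapped, which held for 28.6% of all genes, but vehicle replicate 4 and drug replicate 1 of Nr3c1, and vehicle replicate 1 and drug replicate 3 of Ddit4, were less than 1 CPM apart. The Nr3c1 call was lost without vehicle context replicate 1 or 2 (edgeR adjusted p = 0.0633 and 0.0631). The Ddit4 call was lost without vehicle context replicate 2, 3 or 4 or CI-994 context replicate 1, 2 or 4 (edgeR adjusted p = 0.0502 to 0.0995). Tsc22d3 was at 0.44 (SE 0.16, edgeR adjusted p = 0.0575) and was called without vehicle context replicate 1, vehicle CFC replicate 1 or CI-994 context replicate 3 (edgeR adjusted p = 0.0304 to 0.0474). Zbtb16 had 31.0, 29.8, 31.7 and 29.6 CPM against 40.1, 30.1, 30.0 and 31.8 CPM, with replicate 1 of the drug group apart from the other 3 (0.23, SE 0.11, edgeR adjusted p = 0.162). Its groups overlapped as CPM and not after TMM scaling.

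**Figure D2:**
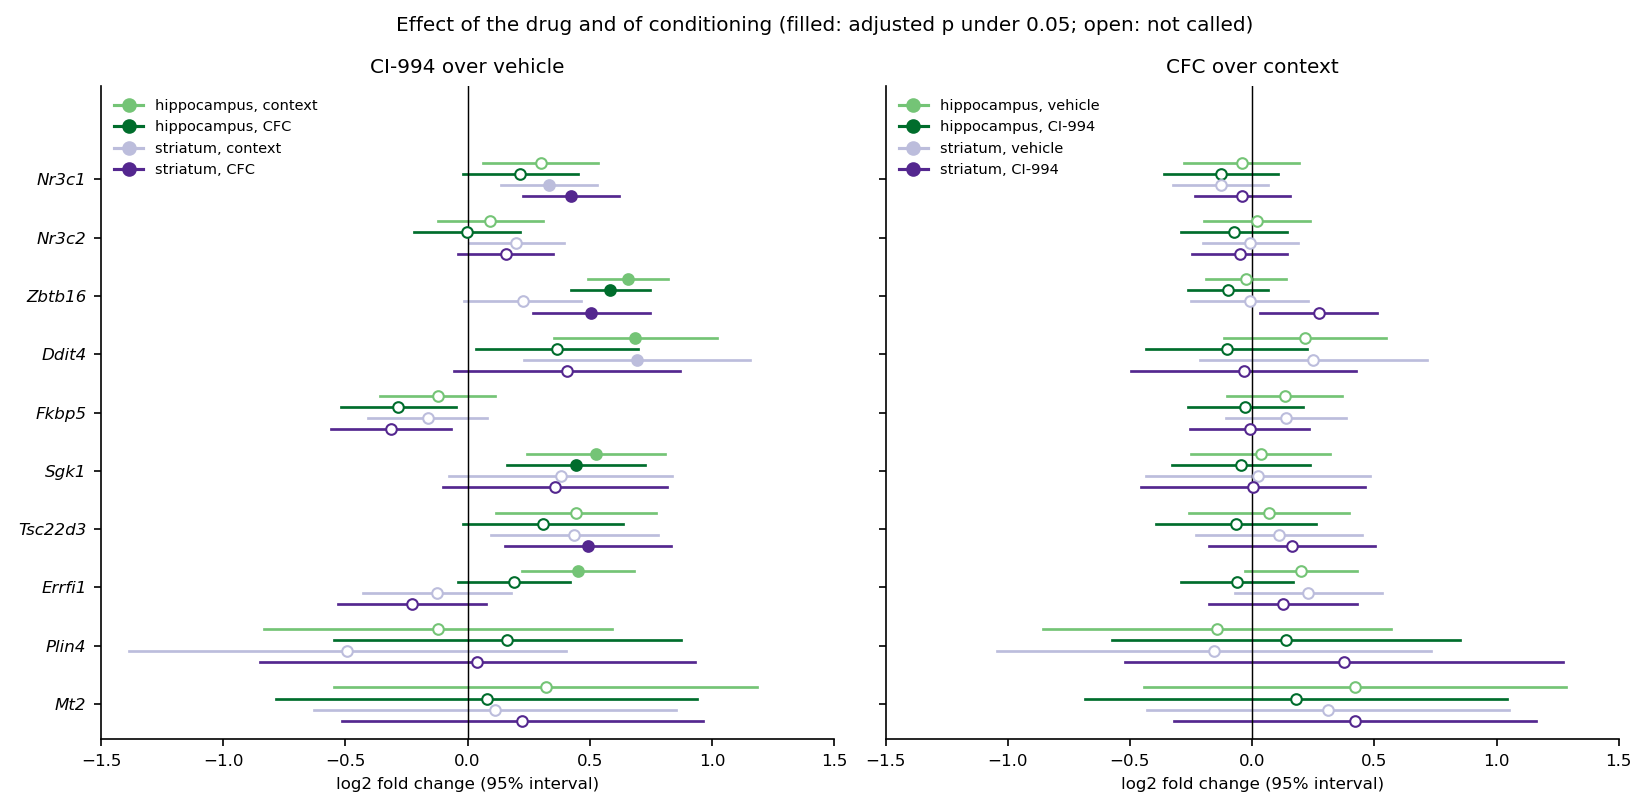
Log2 fold changes with 95% intervals from edgeR for CI-994 over vehicle (left) and CFC over context (right), 4 comparisons each. Filled points passed adjusted p under 0.05. All filled points are rises with CI-994, and none is in the CFC panel, where intervals are widest for Plin4 and Mt2.

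Across the 4 drug comparisons Nr3c1, Zbtb16, Ddit4, Sgk1, Tsc22d3 and Mt2 were above 0 in all 4, Nr3c2 in 3, Errfi1 and Plin4 in 2, and Fkbp5 in none. CI-994 groups share their vehicle controls with the CFC comparisons, so these are values set side by side. The median of the 10 genes was 0.38 log2 in hippocampus after context and 0.20 after CFC, and 0.21 and 0.29 in striatum, while the median of all genes was 0.01 to 0.03. Nr3c2 was at 0.09 and -0.00 log2 in hippocampus and at 0.20 and 0.16 in striatum (context and CFC), with none called.

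Fkbp5 was the only response gene with values below 0 in every drug comparison, and none of its values was called. In hippocampus after CFC it had 91.1, 129, 91.4 and 104 CPM in vehicle and 81.3, 72.3, 77.9 and 95.04 CPM in CI-994 mice. In striatum it had 67.7, 99.3, 65.1 and 87.4 CPM against 65.6, 55.3, 60.6 and 60.1 CPM. Vehicle replicates 2 and 4 were the highest in both regions, and the groups overlapped in both. The log2 fold changes were -0.28 (SE 0.11, edgeR adjusted p = 0.0851) and -0.31 (SE 0.12, edgeR adjusted p = 0.0591). After context they were -0.12 (edgeR adjusted p = 0.514) and -0.16 (edgeR adjusted p = 0.332). Scaling to the library size alone called both CFC values (-0.35, edgeR adjusted p = 0.0388, and -0.40, edgeR adjusted p = 0.0169), and the DESeq2 Wald test called the striatal one (adjusted p = 0.0411). The striatal value was also called without the libraries that stood apart (-0.36, edgeR adjusted p = 0.0331) and without vehicle context replicate 1, vehicle CFC replicate 1 or 3 or CI-994 CFC replicate 1 (edgeR adjusted p = 0.0178 to 0.0483).

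Scaling mattered for the calls on higher genes too. With library size alone the median of all genes in striatum after context moved by -0.11 log2 against TMM, and Nr3c1 and Ddit4 there (edgeR adjusted p = 0.0782 and 0.0674), Sgk1 in hippocampus after CFC (edgeR adjusted p = 0.057) and Tsc22d3 in striatum after CFC (edgeR adjusted p = 0.083) were not called. The signs of all 11 rises remained. Over all genes, the share of calls that were lower was 64.3% and 66.9% in hippocampus (CFC and context) and 60.4% and 58.5% in striatum with TMM. With library size alone it was 76.4%, 81.0%, 76.5% and 78.6%, and with offsets for GC content and transcript length 50.6%, 53.3%, 54.8% and 54.7%.

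Plin4 and Mt2 varied widely between mice of a group. Plin4 in the striatum had 46.6, 20.03, 19.1 and 13.8 CPM in vehicle context and 10.3, 45.8, 12.2 and 22.0 CPM in vehicle CFC mice, against 23.5, 11.2, 13.5 and 16.9 CPM and 25.1, 15.3, 24.3 and 22.1 CPM with CI-994. Over all 16 libraries the highest value was 3.62 times the lowest in hippocampus and 4.50 times in striatum. Mt2 had 72.5, 48.1, 27.2 and 23.7 CPM in hippocampus of vehicle context and 51.2, 104, 26.5 and 48.4 CPM of vehicle CFC mice, and its 16 libraries differed up to 4.40-fold in hippocampus and 3.47-fold in striatum. In vehicle mice of both regions the highest library of both genes was replicate 1 after context and replicate 2 after CFC. The drug effects had SEs of 0.34 to 0.42 log2 for Plin4 and 0.35 to 0.41 for Mt2, and all 4 comparisons of each were uncalled. Mt2 shares 432 exon bases with the antisense gene Gm45774 (mean 0.289 CPM), and Plin4 shares 17 with Hdgfl2 on the other strand (mean 51.3 CPM).

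A different drug effect after CFC than after context was not called for any of the 10 genes in either region, nor for any gene of the whole table (0%). At an unadjusted p under 0.05 edgeR gave 0 of the 10 in both regions and 390 and 380 of all genes, and DESeq2 called 0 of the 10 in both, and 1 and 0 genes in all. The intervals were wide: for Ddit4 the interaction was -0.32 (-0.79 to 0.15) in hippocampus and -0.28 (-0.94 to 0.37) in striatum, and for Zbtb16 -0.07 (-0.30 to 0.16) and 0.28 (-0.06 to 0.62).

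The drug effect was also compared between the regions. Errfi1 had opposite signs, 0.45 in hippocampus and -0.12 in striatum after context, and 0.19 and -0.23 after CFC. In the striatum Errfi1 had 33.5, 27.0, 31.4 and 35.4 CPM with vehicle and 30.4, 22.5, 26.3 and 28.7 CPM with CI-994 after context, overlapping groups. Its region difference of 0.56 log2 after context (SE 0.18, unadjusted p = 0.00516) had edgeR adjusted p = 0.246, and 0 of the 10 genes were called (0.62% of all genes). Same-numbered libraries of the 2 regions deviated together in the context groups, and with the block for treatment and number Errfi1 was called (0.56, edgeR adjusted p = 0.0161). It was also called without hippocampal CI-994 context replicate 2 (0.75, edgeR adjusted p = 0.0342). Zbtb16 had a region difference of 0.42 after context (SE 0.14, unadjusted p = 0.00565, edgeR adjusted p = 0.255), and was called without striatal vehicle CFC replicate 2 or striatal CI-994 context replicate 1 (0.52 and 0.62, edgeR adjusted p = 0.0276 and 0.0207). After CFC 0 of the 10 were called (0.266% of all genes), with Errfi1 at 0.41 (SE 0.18, edgeR adjusted p = 0.564) and 1 of the 10 at an unadjusted p under 0.05. DESeq2 called 0 of the 10 after context and after CFC. Of the genes called for a region difference, 53.8% were lower after context and 47.1% after CFC. With other scalings these shares were 36.3% to 39.5% and 36.5% to 40.7%.

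Further genes of the pathway gave the following counts. Of 24 other glucocorticoid-responsive genes, 4 rose with CI-994 in hippocampus after CFC and 6 after context, beside 7.42% and 6.55% of all genes that rose and 20.8% and 19.8% called in all. Of the 23 tested in striatum 8 and 10 rose, beside 9.57% and 10.3% that rose and 24.2% and 24.8% called. No gene of that list fell. The list was chosen with earlier results of these data known, so its shares are given as descriptions. Bcl6, a transcriptional repressor, rose 1.76-fold in hippocampus and 1.71-fold in striatum after context (edgeR adjusted p = 2.93e-05 and 0.00186), and 1.43-fold in hippocampus after CFC (edgeR adjusted p = 0.00163). Irs2, an adaptor of the insulin receptor, rose 1.32-fold and 1.26-fold in hippocampus (context and CFC) and 1.57-fold in striatum after CFC. Fam107a, an actin-binding protein, rose 1.39-fold in hippocampus after CFC, and 1.46-fold and 1.47-fold in striatum after CFC and context. Txnip, an inhibitor of thioredoxin, rose 1.66-fold in hippocampus after context, Glul, the glutamine synthetase of astrocytes, 1.24-fold in striatum after CFC, and Angptl4, an inhibitor of lipoprotein lipase, 2.50-fold in striatum after context. The list's median was 0.24 log2 in hippocampus after context and 0.09 after CFC, and 0.18 and 0.23 in striatum, against 0.01 to 0.03 for all genes. Astrocyte markers, relevant to Glul, rose in 0 of 6 cases in either hippocampal comparison and in 2 and 3 of 6 in striatum (CFC and context), and their part was not tested.

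Of 17 genes for receptor chaperones, coregulators and steroid metabolism, 16 were tested. H6pd, which supplies NADPH to the enzyme that regenerates active glucocorticoid, fell by 0.76 log2 in hippocampus after context (SE 0.19, edgeR adjusted p = 0.00891) and by 0.41 in striatum after CFC (SE 0.14, edgeR adjusted p = 0.0381). The coactivator gene Ncoa2 and the drug exporter Abcb1a, which carries some corticosteroids out of the brain endothelium, rose 1.14-fold and 1.23-fold in striatum after context (edgeR adjusted p = 0.0221 and 0.0265). No other gene of this list was called in a drug comparison, 0 of 16 in hippocampus after CFC (20.8% of all genes). Of the endothelial markers, 5 of 8 rose where Abcb1a did, and their part was not tested. Of 8 stress peptides and their receptors 5 were tested and 0 were called in all 4 drug comparisons, which called 19.8% to 24.8% of all genes. With 5 genes, a count of 0 says little beside that share. No gene of the 3 lists was called for CFC against context, where 0% of all genes were called.

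Between the regions of vehicle context mice, where 24.2% of all genes were higher in hippocampus, 19.9% lower and 44.1% called in all, a smaller share than that 44.1% was called in each of the 3 lists. Hsd11b1, the enzyme that regenerates active glucocorticoid, was 5.15-fold higher in hippocampus (edgeR adjusted p = 1.07e-14). Of the 16 tested genes of its list 4 were higher there and none lower, with the coregulators Ncoa1 (1.34-fold) and Ncor1 (1.38-fold) next by adjusted p. Crhbp, which binds corticotropin-releasing hormone, was 7.72-fold and the oxytocin receptor gene Oxtr 3.73-fold higher in hippocampus, 2 of 5 stress peptide genes. Of the 24 responsive genes 5 were higher and 3 lower, among them Bcl6 (3.51-fold higher) and Klf9 and Dusp1 (log2 fold changes -0.45 and -0.99).

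Mice of 1 group differed from each other in several of these genes at once. For each gene the group mean of TMM-scaled log2 CPM was subtracted, and the 45 pairs of genes were correlated over the 16 libraries of a region, with two-sided permutation p from shuffles within groups, adjusted over the 45 pairs computed. In hippocampus 6 pairs were positively and 4 negatively correlated at adjusted p under 0.05, and in striatum 10 and 1. The share of such pairs among other genes was not computed, so whether the covariation is particular to these genes was not tested. Ddit4 and Fkbp5 varied together in hippocampus (r = 0.888, rho = 0.894, permutation p = 0.00017 and 0.00089, adjusted p = 0.00383 and 0.0200), and so did Ddit4 and Tsc22d3 (r = 0.874, rho = 0.888, adjusted permutation p = 0.00383 and 0.0054). In striatum the strongest pairs were Ddit4 with Sgk1 (r = 0.943, rho = 0.935, adjusted permutation p = 0.00788 and 0.00968) and Sgk1 with Tsc22d3 (r = 0.824, rho = 0.815, adjusted permutation p = 0.00788 and 0.00225). Fkbp5 and Plin4 were called in both regions (r = 0.739 and 0.824).

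The glucocorticoid receptor gene went the other way. Nr3c1 was low in mice with high Fkbp5 in hippocampus (r = -0.861, rho = -0.674, permutation p = 0.00333 and 0.0245, adjusted p = 0.0300 and 0.104) and in striatum (r = -0.788, rho = -0.724, adjusted permutation p = 0.0240 and 0.0294). It was also low with high Mt2 in hippocampus (r = -0.781, rho = -0.765). Nr3c2 was low with high Plin4 (r = -0.763) and high Tsc22d3 (r = -0.682) in hippocampus, and a difference in these correlations between regions was not tested. Without the 2 libraries farthest from the median of the first gene no hippocampal pair was called, and vehicle CFC replicate 2 was among those left out for 9 of the 10 pairs. Ddit4 with Fkbp5 and Ddit4 with Tsc22d3 then had r = 0.841 and 0.851 (unadjusted permutation p = 0.00284 and 0.00286, adjusted p = 0.0643 for both). The correlations of the other 8 pairs kept their sign and were smaller in size, 0.343 to 0.573 for the positive and -0.594 to -0.478 for the negative ones. For Nr3c1 and Fkbp5 r was then -0.594 in hippocampus and -0.589 in striatum (adjusted permutation p = 0.307 and 0.124), and neither was called. Leaving out the farthest libraries also narrows the range of the first gene and leaves fewer libraries. The lost calls therefore cannot tell a relation carried by those libraries from one shared by all. In striatum 3 pairs were then called, all among Ddit4, Sgk1 and Tsc22d3 (r = 0.855 to 0.923).

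In 5 of the 8 groups, the 4 context groups and hippocampal vehicle CFC, replicates 1 and 2 were closer in their counts to each other, and 3 and 4 to each other, than any library was to one of the other set. No label explains this, and it did not hold in the other 3 CFC groups. The deviations were therefore also taken within each of these sets. The correlations of the pairs named kept their sign: 0.913 and 0.847 for Ddit4 with Fkbp5 and with Tsc22d3 in hippocampus, -0.897 and -0.873 for Nr3c1 with Fkbp5 in hippocampus and striatum, and 0.952 and 0.793 for Sgk1 with Ddit4 and with Tsc22d3 in striatum. With the 256 shuffles that exist there, no pair was called (smallest adjusted exact permutation p = 0.141 in hippocampus and 0.117 in striatum). These shuffles can give no exact permutation p under 0.0078, which passes the adjustment over 45 pairs only if several pairs reach it. The absence of a call there therefore says little about these pairs. Unadjusted, the exact permutation p was 0.0156 and 0.0234 for Ddit4 with Fkbp5 and with Tsc22d3 in hippocampus and 0.00781 for Sgk1 with Tsc22d3 in striatum. It was 0.125 and 0.0547 for Nr3c1 with Fkbp5 in hippocampus and striatum and 0.0625 for Ddit4 with Sgk1 in striatum, none of which is under 0.05. Of all 45 pairs 10 in hippocampus and 7 in striatum had an unadjusted exact permutation p under 0.05.

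**Figure D3:**
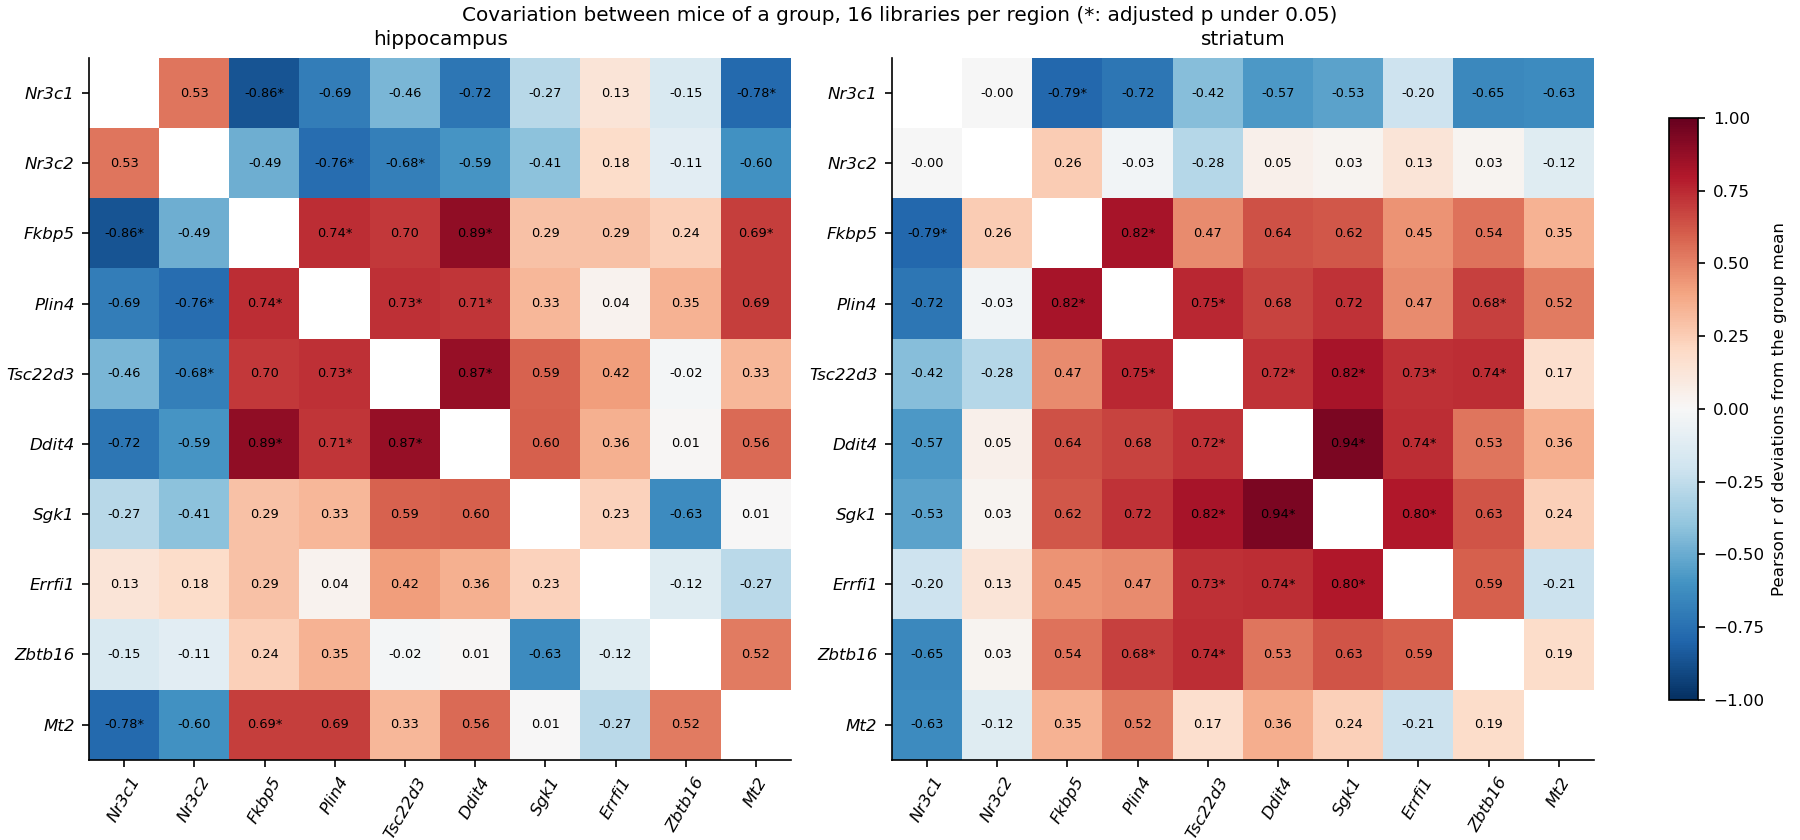
Pearson correlations between deviations from the group mean for each pair of genes, 16 libraries per region, with red for positive and blue for negative values and an asterisk at adjusted permutation p under 0.05. Response genes are mostly red among themselves, and the Nr3c1 row is mostly blue.

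Libraries with the same treatment and number tended to deviate together in both regions. The labels do not say whether same-numbered libraries come from 1 mouse. Over the 16 pairs of same treatment and number, deviations in hippocampus and striatum were correlated for 8 of the 10 genes, adjusted over the 10 correlations computed. The correlations were 0.892 for Tsc22d3, 0.891 for Ddit4, 0.881 for Plin4, 0.860 for Mt2, 0.818 for Nr3c1, 0.757 for Fkbp5, 0.693 for Sgk1 and 0.676 for Errfi1 (adjusted permutation p = 0.0009 to 0.0185, rho = 0.597 to 0.918). Nr3c2 (r = 0.125) and Zbtb16 (r = 0.0747) showed none, at adjusted permutation p = 0.749 and 0.791. The share of all genes with such a correlation was not computed. Taken over all genes, the deviations of same-numbered libraries of the 2 regions were also positively correlated (0.08 to 0.43). Whether the likeness is particular to these genes was not tested. Vehicle CFC replicate 2 was above its group mean in 7 of 8 response genes in hippocampus and 8 of 8 in striatum, with medians of 0.33 and 0.34 log2, and it had the lowest Nr3c1 of all 16 libraries in both regions (68.0 and 73.3 CPM). Vehicle context replicate 1 was above its mean in 8 of 8 genes in both regions. Vehicle CFC replicate 1 was low in both, with medians of -0.27 and -0.36.

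Without the 2 pairs farthest from the median, Ddit4 (0.919), Tsc22d3 (0.855), Plin4 (0.796) and Mt2 (0.796) were still called, and Nr3c1, Fkbp5, Sgk1 and Errfi1 were not (r = 0.468 to 0.572, unadjusted permutation p = 0.0787 to 0.0873). Those 4 genes kept the sign, and their lost calls also come with a narrower range and fewer pairs. Within replicates 1 and 2 and within 3 and 4 the correlations of the 8 genes were 0.549 to 0.889 and none was called by the exact permutation test (smallest p = 0.0156 for Ddit4, adjusted p = 0.156). That test can give no p under 0.0078, and a single gene at that value would not pass the adjustment.

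**Figure D4:**
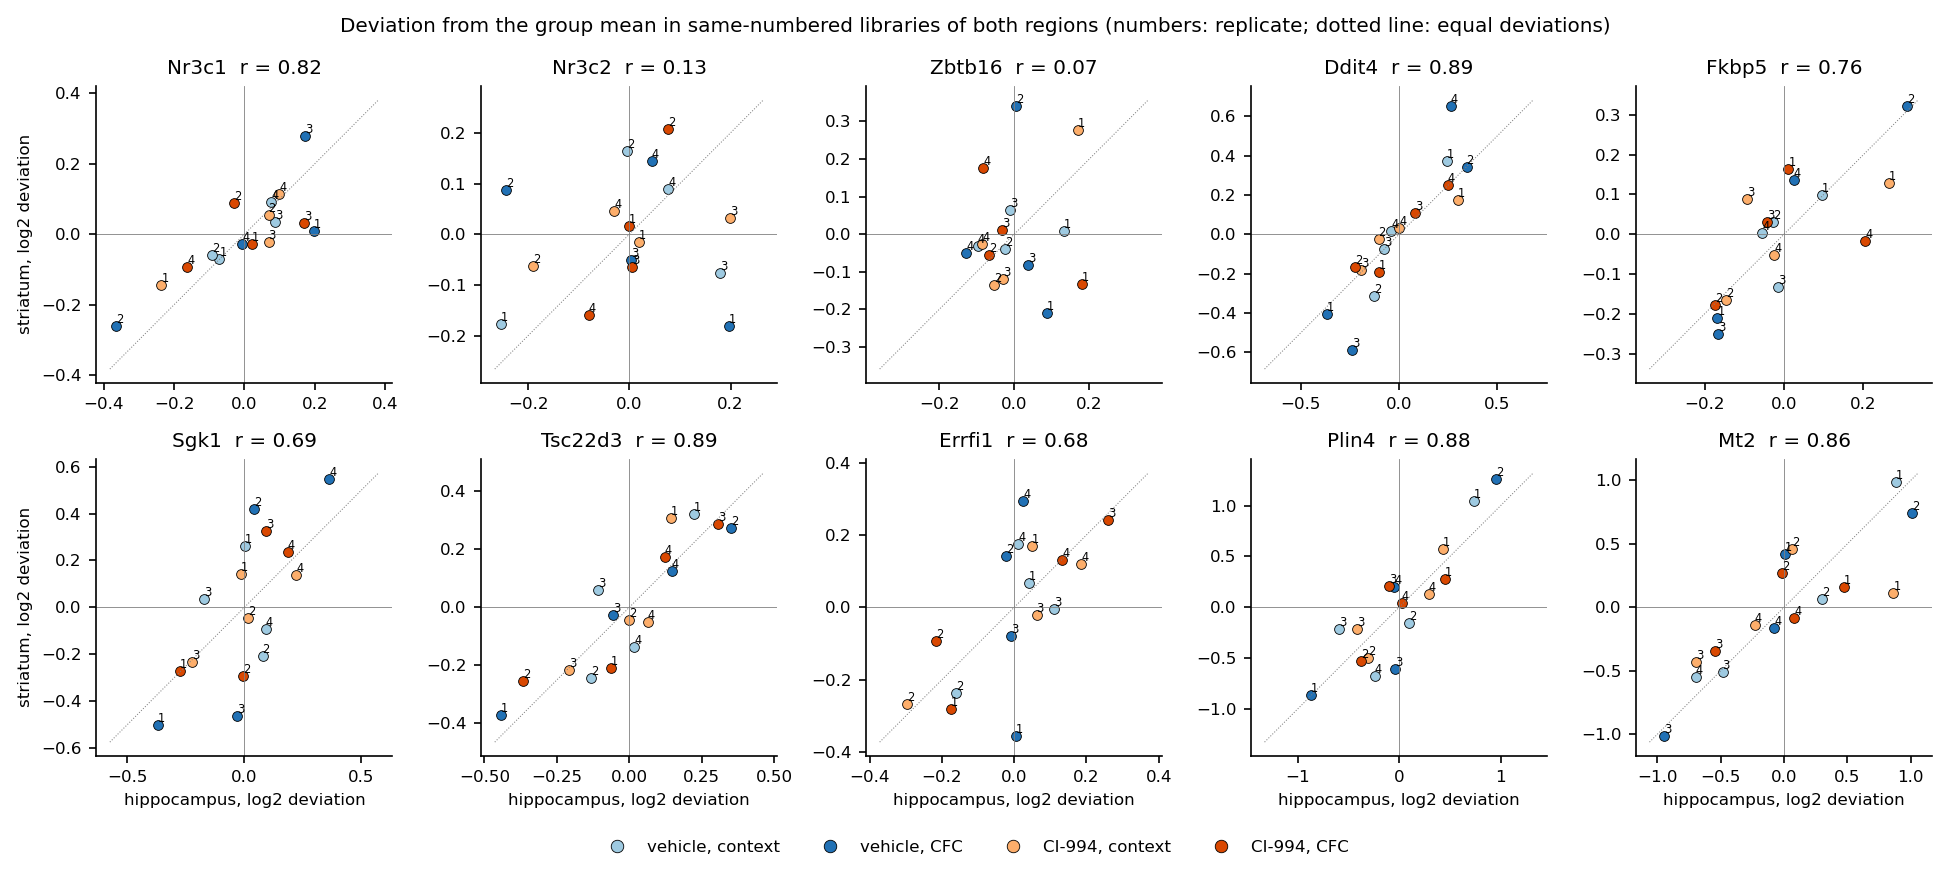
Deviation of each library from its group mean in hippocampus (horizontal) and striatum (vertical), in log2, for libraries of the same treatment and replicate number, which is printed beside each point. Points follow the dotted line of equal deviations for Ddit4, Tsc22d3, Plin4 and Mt2, and scatter around 0 for Nr3c2 and Zbtb16.

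The genes with a pattern most like Fkbp5 over the 16 libraries of a region, which include the group differences, were Smim3 (r = 0.866), Pnpla2 (r = 0.848) and Map3k6 (r = 0.843) in hippocampus among 12357 genes ranked. In striatum they were Tmprss6 (r = 0.870), Dcaf4 (r = 0.865) and Map3k6 again (r = 0.855) among 12349. Map3k6, a stress-activated kinase, is 1 of the 24 responsive genes. For Zbtb16 they were Sybu, Nhsl1 and Ccnjl in hippocampus (r = 0.974, 0.974 and 0.972) and Rin2, Cd81 and Phlda3 in striatum (r = 0.893, 0.890 and 0.888). These correlations share library and drug and are given as descriptions.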

How the data were processed

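RNA was measured in 16 hippocampal and 16 striatal libraries, from stranded polyA preparations sequenced as paired reads, per the labels' protocols. The authors deposited raw read counts per Ensembl gene. The submitters' processing notes list, with no roles, mm10, DESeq2, STAR 2.6 and bcl2fastq 2.20.0. How reads were counted, and on which strand, is not given in the sources used here. Of 54146 identifiers 54079 were matched to symbols, positions and exon lengths in GENCODE M21 (GRCm38), and the other 67 took up 0.0264% of the counts of any library at most. No 2 replicates agreed within sampling noise.

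From the counts, CPM was computed on the library total. In R 4.3.3, edgeR 4.0.16 was run with TMM scaling, filterByExpr, group means without a block and the two-sided quasi-likelihood F test, on 16 libraries per region or on all 32 for contrasts between regions. Benjamini-Hochberg adjustment ran over the whole table in each comparison, and adjusted p under 0.05 was called. Correlations used 100000 shuffles within groups. The fits and correlations were tested on simulated data. Alternatives were DESeq2 1.42.0, other scalings, no filter, GC content and length offsets (lowess span 0.3), a replicate block, terms for or subsets of replicate sets, only the groups compared, and fits without single libraries or those that stood apart. The block for treatment and number across regions, and the correlations within replicate sets and without the 2 farthest libraries, were chosen after seeing the data.

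Replicate numbers were taken to pair the libraries where all 4 same-numbered pairs had correlated deviations over 0.1. This held for hippocampal CI-994 and vehicle context (0.17 to 0.38), and between regions for vehicle context (0.15 to 0.43), vehicle CFC (0.16 to 0.27) and CI-994 context (0.15 to 0.26). The rule did not weigh likeness to other numbers. In that order, 3, 2, 4 and 3 of 4 libraries were most like their own number. Between regions this was 4 of 4 for CI-994 CFC, which the rule left out.

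The 10 genes, the further lists and the tests were chosen with earlier results of these data known. Named genes were the 10, the 3 called genes of each further list with the smallest adjusted p in a comparison, and the 3 genes most correlated with Fkbp5 and Zbtb16 in a region, of mean log2 CPM of at least 1. Promoter sequences and start sites are from RefSeq (GRCm38.p6), whose table held 8 of the 10 genes.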

Additional observations from a re-analysis of the deposited data

Results flagged for a closer look

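Among 80 sets of 4 replicates (10 genes in 8 groups), 2 had a library whose gap to the next, as a share of the group's range, exceeded Dixon's critical value, and chance gives about 1 in 20. In the hippocampal CI-994 CFC group, Zbtb16 had 160.18 CPM in replicate 1 and 136.29 to 137.44 CPM in the other libraries. Without that library the drug effect after CFC was 0.52 log2 (edgeR adjusted p = 0.000209) instead of 0.58. In the hippocampal vehicle context group, Ddit4 had 46.757 CPM in replicate 1 and 35.849 to 37.551 CPM in the others. Without it the drug effect on Ddit4 after context was 0.78 log2 (edgeR adjusted p = 0.00355) instead of 0.69.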

How the results depend on the processing

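No direction of a called gene reversed. Of 1560 single-gene results under other settings, 1509 kept their side of the threshold, 23 lost and 28 gained a call. Most of these results were uncalled in the main fit, so the 23 losses fall on the far fewer called ones. Between uncalled values there were 110 changes of sign. The number of the 10 genes called for the drug in hippocampus after CFC was 2, and it was 1 with replicates 1 and 2 alone, 1 without the libraries that stood apart, 1 with only the groups compared and 4 with offsets for GC content and length. With replicates 1 and 2 alone it was 1 in hippocampus after context and 1 in striatum after CFC. In striatum after context it was 2, but 0 with library size alone, 0 with replicates 1 and 2 alone, 0 with replicates 3 and 4 alone and 4 with only the groups compared. The block for treatment and number raised the calls between regions at baseline from 5 to 8, and of the region difference after context from 0 to 1. Leaving out 1 library gave 1 to 3, 4 to 6, 2 to 4 and 0 to 3 calls in these 4 drug comparisons (in the order hippocampus after CFC and context, striatum after CFC and context), 5 at baseline, 0 to 1 for the region difference after context, and 0 in the others. The called correlations (10 in hippocampus, 11 in striatum and 8 between regions) were 0, 0 and 0 within replicate sets, and 0, 3 and 4 without the 2 farthest libraries. Within replicate sets the 256 shuffles left little room for a call. The replicate block changed 1 call where numbers were not shown to pair the libraries, Tsc22d3 in striatum after CFC (edgeR adjusted p = 0.053), and no call among the others beyond those printed with the results. Over all genes, drug calls in hippocampus (3797 and 3612) were 5716 and 5738 with GC content and length offsets, 2358 after CFC without the libraries that stood apart, and 1401 to 2329 in any region with 1 replicate set. Region differences (51 after CFC, 119 after context) were 151 and 205 by DESeq2, 139 and 238 with the replicate block, 134 and 223 with a term for the replicate sets, 189 and 286 with the offsets, 187 and 312 with the block for treatment and number and 0 to 4 with 1 replicate set. After CFC there were 4 with only the groups compared, and after context 73 with no filter and 208 without the libraries that stood apart. The causes were not tested. With 4 mice a group, SEs of 0.08 to 0.42 log2 limit what could be called.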
